A study of Mus musculus with 69 samples.

Results

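Slc6a18, Atp11a, Slc7a13, Slc22a7 and Cyp7b1 were followed as 5 marker genes of S3, the last, straight segment of the proximal tubule. They were chosen by name: every row of the 4 deposited expression tables carrying one of these symbols was taken, which gave 5 rows of 55487 genes in each 24 h table and 5 of 53700 in each 72 h table. The study dissected tubules from kidneys of wild-type (WT) male C57BL/6 mice that were 7 weeks old, after a sham operation or after UNx (unilateral nephrectomy, the surgical removal of a kidney). The segments were PT-S1, the first part of the proximal tubule, and the CCD (cortical collecting duct), each taken at 24 h and 72 h. Polyadenylated RNA of each short tubule piece was amplified and sequenced, and values are TPM (a share of all transcripts in the library, counted per transcript length). PT-S1 at 24 h had 8 libraries of 3 sham mice and 9 of 4 UNx mice, and at 72 h it had 12 libraries of 5 mice in each group. The CCD had 8 libraries of 4 sham mice and 7 of 3 UNx mice at 24 h, and 7 and 6 libraries of 4 mice each at 72 h.

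The proximal tubule is a chain of segments, S1, S2 and S3, that pass into each other along one tube and divide the recovery of solutes between them. S1 takes back most glucose, phosphate and amino acids with high-capacity carriers, S2 is rich in organic anion carriers, and S3 has high-affinity carriers that recover what is left. An S1 dissection that runs further down the tube therefore brings S2 and S3 cells with it. In such bulk RNA, fewer cells of a type and less RNA per cell cannot be told apart.

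Slc6a18 (ENSMUSG00000021612) encodes a brush-border carrier of neutral amino acids. Slc7a13 (ENSMUSG00000041052) encodes a carrier of acidic amino acids and cystine that pairs with the Slc3a1 product. Slc22a7 (ENSMUSG00000067144) encodes the organic anion transporter OAT2. Atp11a (ENSMUSG00000031441) encodes a phospholipid flippase of the plasma membrane, which needs the Tmem30a subunit. Cyp7b1 (ENSMUSG00000039519) encodes oxysterol 7-alpha-hydroxylase, an enzyme of the alternative bile acid pathway.

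Segment markers followed the labels. Slc34a1, the sodium-phosphate carrier of early proximal tubule, ranged from 1272 to 11207 TPM in the 41 PT-S1 libraries and from 0.51 to 89.7 TPM in the 28 CCD libraries. Aqp2, the water channel of principal cells, was at most 2.01 TPM in PT-S1 and at least 9362 TPM in the CCD. A few libraries (5 of 69) stood apart, with a median correlation with the other libraries of their table under 0.92. They were library 1 of sham mouse 1 and library 2 of sham mouse 3 in PT-S1 24 h, library 2 of UNx mice 1 and 2 in PT-S1 72 h, and library 2 of sham mouse 1 in CCD 72 h. Libraries detected 9247 to 14875 genes at 1 TPM or more. TPM carries no read depth, so the counting error of low values is unknown. Nothing in the labels says that the libraries of a mouse are separate tubules or separate dissections. Mice are the replicates below, and the libraries of a mouse are averaged on the log2(TPM + 1) scale before any test.

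By their pooled medians the markers fell into an order of level in PT-S1, and Cyp7b1 was nearly absent there. Over the 41 PT-S1 libraries the median level was 31.8 TPM for Atp11a, 23.9 TPM for Slc6a18, 4.1 TPM for Slc7a13, 0.58 TPM for Slc22a7 and 0.1 TPM for Cyp7b1. The ranges were wide. Slc7a13 ran from 0.14 to 828 TPM and Slc6a18 from 0.68 to 428 TPM, while Atp11a ran from 1.95 to 259 TPM. Slc22a7 ran from 0 to 180 TPM with 4 libraries listed at 0, and Cyp7b1 from 0 to 10.8 TPM with 9 libraries at 0 and 3 at 1 TPM or more. These ranges overlapped between all neighbours in the order. In the UNx libraries at 24 h the median was 83.9 TPM for Slc6a18 and 38.8 TPM for Atp11a, so this pair changed places there.

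In the CCD Cyp7b1 moved from last to first in this order. It had a median of 65.97 TPM and a narrow range from 49.5 to 78.6 TPM, so its lowest CCD library was above its highest PT-S1 library. Atp11a followed with 14.4 to 40.4 TPM, inside its PT-S1 range. The carriers were low: Slc7a13 had a median of 2.23 TPM, Slc6a18 of 1.70 TPM and Slc22a7 of 0.96 TPM. The PT-S1 and CCD tables were treated as normalized separately, so these levels are set side by side without a test.

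**Figure D1:**
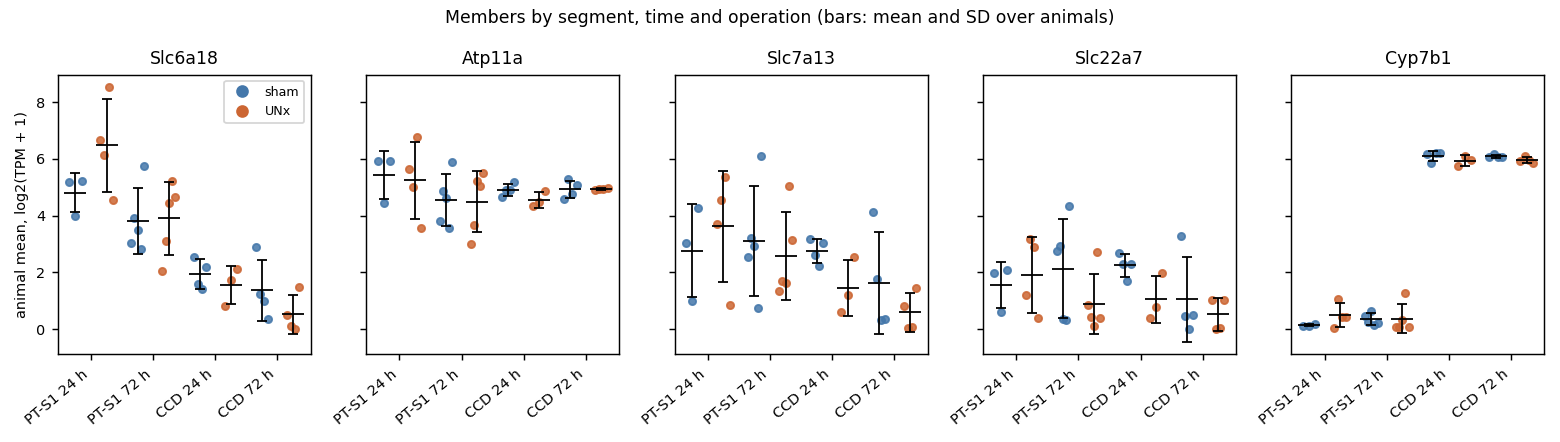
Level of the 5 marker genes in each mouse, as the mean of its libraries on the log2(TPM + 1) scale (vertical axis), by segment, time and operation (horizontal axis). Points are mice, and bars give the mean and SD over mice. Cyp7b1 sits near 6 in every CCD mouse and at 1.26 or lower in every PT-S1 mouse, and Slc6a18 is lower in the CCD mice than in most PT-S1 mice. Slc7a13 and Slc22a7 overlap between the segments.

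The enzymes around Cyp7b1 also differed in level between the segments. Cyp39a1, another oxysterol 7-alpha-hydroxylase, had 20.5 to 51.1 TPM in the CCD and 0.20 to 4.02 TPM in PT-S1. Hsd3b7, which acts on the products of these hydroxylases, had 50.4 to 72.3 TPM in the CCD and 5.01 to 39.7 TPM in PT-S1. Cyp27a1, the sterol side-chain hydroxylase upstream, was placed the other way, with 11.1 to 91.6 TPM in PT-S1 and 1.67 to 4.93 TPM in the CCD. Cyp7a1 and Cyp8b1, enzymes of the classical hepatic pathway, were at or near 0 (at most 3.56 and 0.61 TPM in any library). The high CCD level of Cyp7b1 shows that it is not a marker of S3 alone among these segments. Its low level in an S1 dissection does not bear on its presence in S3, which was not sampled here on its own.

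Atp11a was the only marker present at more than 1 TPM in all libraries of both segments. Its partner Tmem30a was also present throughout, with 9.23 to 303 TPM in PT-S1 and 61.3 to 194 TPM in the CCD. A promoter sequence was at hand for Atp11a alone among the 5 genes, and it is shown as background to this broad presence. RefSeq places it at chr8:12756766-12757065 of GRCm38.p6 (plus strand), which is not the GRCm39 build of the expression tables. Capitals mark CG dinucleotides.

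Atp11a promoter: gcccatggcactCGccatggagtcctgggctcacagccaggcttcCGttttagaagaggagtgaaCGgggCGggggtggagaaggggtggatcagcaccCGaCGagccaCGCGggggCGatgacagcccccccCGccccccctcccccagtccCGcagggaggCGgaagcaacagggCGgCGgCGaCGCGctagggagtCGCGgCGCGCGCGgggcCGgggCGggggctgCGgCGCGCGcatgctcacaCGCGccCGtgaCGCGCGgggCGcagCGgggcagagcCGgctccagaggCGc

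These 300 bases hold 39 CG dinucleotides, counted on 1 strand because CG reads the same on the other, and are 76% G or C. The median over 32851 mouse promoters of that length was 7 CG, and 4.45% had at least as many as Atp11a. This is a description of the sequence, and no measurement here bears on its use.

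Libraries of the same mouse differed widely. In PT-S1 24 h, sham mouse 1 had 1.09, 1.53 and 102.94 TPM of Slc7a13 in its 3 libraries. Sham mouse 2 had 2.48 and 0.14 TPM, and sham mouse 3 had 109.8, 6.68 and 7.14 TPM. A single library carried nearly all of the Slc7a13 signal in sham mice 1 and 3.

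The UNx mice at 24 h showed the same unevenness. UNx mouse 2 had 0.60 and 338.04 TPM of Slc7a13, a 563-fold difference. UNx mouse 1 had 14.46 and 10.28 TPM and UNx mouse 3 had 24.13 and 64.86 TPM, both with moderate levels in each library. UNx mouse 4 had 0.57, 0.36 and 1.82 TPM, low in all 3.

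At 72 h the widest sham mouse was sham mouse 5, with 94.83, 828.45 and 3.22 TPM of Slc7a13. Sham mouse 2 had 70.93 and 0.19 TPM, a 373-fold difference. Sham mouse 1 had 13.64 and 1.26 TPM and sham mouse 3 had 1.16 and 25.5 TPM. Sham mouse 4 was low in each of its libraries, at 0.61, 0.50 and 0.99 TPM.

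Among the UNx mice at 72 h, UNx mouse 4 was highest, with 35.32, 6.40 and 136.28 TPM of Slc7a13. UNx mouse 5 had 19.62 and 2.73 TPM, and UNx mouse 3 had 0.73, 13.17 and 0.17 TPM. UNx mouse 1 had 4.10 and 0.26 TPM and UNx mouse 2 had 1.01 and 4.23 TPM. High and low libraries thus occurred in sham and UNx mice alike, at both times.

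**Figure D2:**
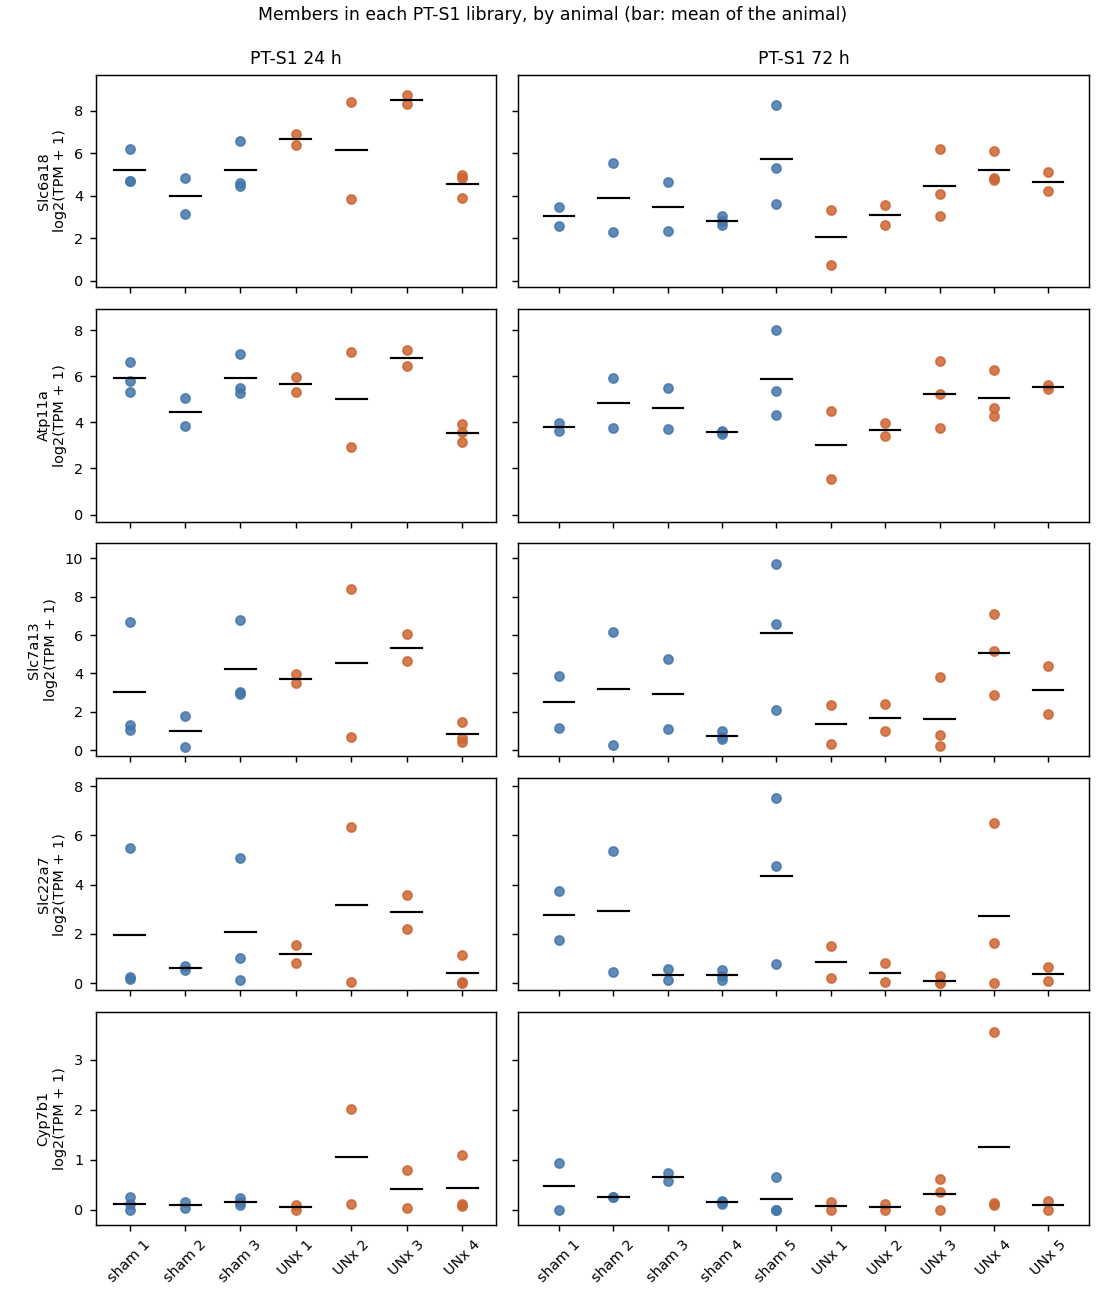
Level of the 5 marker genes in each PT-S1 library (points, log2(TPM + 1) on the vertical axis), by mouse (horizontal axis, sham in blue and UNx in orange), with the mean of each mouse as a bar. In most mice the same library is highest for Slc6a18, Atp11a, Slc7a13 and Slc22a7, and Cyp7b1 stays near 0 in all but a few libraries.

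The 3 carrier genes and Atp11a were mostly high in the same library of a mouse. A single library held the highest value of Slc6a18, Atp11a, Slc7a13 and Slc22a7 together in 6 of 7 mice of PT-S1 24 h and in 8 of 10 of PT-S1 72 h. Cyp7b1 was highest in that same library in 5 of the 6 mice at 24 h and in 3 of the 8 at 72 h. In the CCD the 4 genes peaked together in 1 of 6 mice at 24 h and in 1 of 4 at 72 h, counting mice with more than 1 library. The exceptions in PT-S1 were UNx mouse 1 at 24 h, and sham mouse 4 and UNx mouse 2 at 72 h.

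The libraries with over 60 TPM of Slc7a13 (a level picked after the values were seen) were 8 of 41, with 4 in each table and 3 from UNx mice. Slc22a7 was 11.1 to 180 TPM in these 8, while its median over all PT-S1 libraries was 0.58 TPM. They were not libraries without S1 tissue: Slc34a1 was 5649 to 11207 TPM and Slc5a2, the sodium-glucose carrier that defines S1, was 869 to 3461 TPM. In the highest of them, library 2 of sham mouse 5 at 72 h, Slc5a2 was 1463 TPM against 2640 TPM in library 1 of the same mouse. Kap, an androgen-dependent gene of the late proximal tubule, was 28418 TPM in that library and 3969 TPM in library 1.

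The spread inside mice ranked these genes among the most variable of all. The SD between libraries of a mouse, pooled over mice on the log2(TPM + 1) scale, was 2.504 for Slc7a13 at 24 h and 2.38 at 72 h. That was rank 9 of 11874 genes and rank 8 of 11886, where the median gene had an SD of 0.47 and 0.52. Slc22a7 ranked 15 and 18, with SDs of 2.33 and 2.09. Slc6a18 ranked 158 and 68 (SD 1.31 and 1.47), and Atp11a ranked 272 and 117 (SD 1.11 and 1.26).

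The SD between mouse means of the same group was 1.84 and 1.76 for Slc7a13. For Slc6a18 at 24 h it was 1.34, where the SD between libraries was 1.31. A mouse mean averages several libraries, which alone makes its SD smaller than that of single libraries. These SDs therefore do not rank the spread between mice against the spread between libraries. Cyp7b1 varied little in the CCD, where its SD between libraries was 0.08 at 24 h and 0.16 at 72 h, below the median gene's 0.20 and 0.31.

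Within mice, some pairs of markers moved together more closely than others. Over the 17 libraries of PT-S1 24 h and the 24 of PT-S1 72 h, each taken as its deviation from its mouse's mean, Slc6a18 and Atp11a correlated at r = 0.98 and 0.97. Slc7a13 and Slc22a7 correlated at 0.98 and 0.85, and Slc6a18 and Slc22a7 more weakly at 0.87 and 0.76. Slc22a6, the organic anion carrier OAT1 of S2, correlated with Slc6a18 at 0.94 and 0.90. For the S1 gene Slc5a2 and Slc6a18, r was -0.23 and 0.06. Cyp7b1 followed the other 4 genes at r = 0.67 to 0.78 at 24 h and only at 0.08 to 0.42 at 72 h. These are descriptions over libraries that share a mouse, a scale of a fixed total and unequal RNA input.

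**Figure D3:**
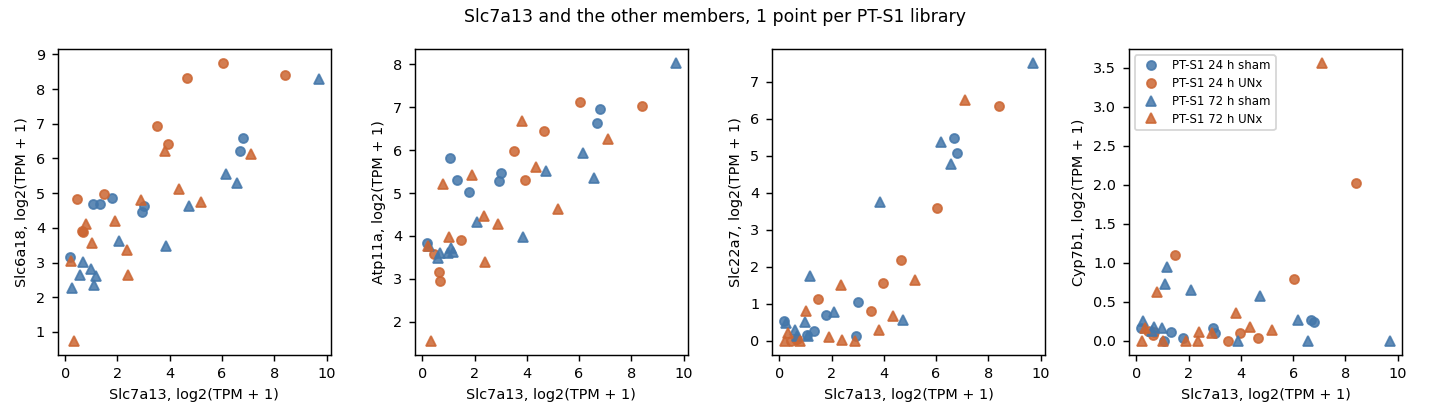
Slc6a18, Atp11a, Slc22a7 and Cyp7b1 (vertical axes) against Slc7a13 (horizontal axes) in the 41 PT-S1 libraries, on the log2(TPM + 1) scale. Circles are 24 h and triangles 72 h libraries, sham in blue and UNx in orange. Slc6a18 and Atp11a rise over the whole range of Slc7a13. Slc22a7 is near 0 in most libraries with low Slc7a13, and Cyp7b1 is near 0 in most libraries over the whole range. An exception for Slc22a7 is library 1 of sham mouse 1 at 72 h, with 12.43 TPM at 13.64 TPM of Slc7a13.

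The genes most like each marker across libraries were then listed among 7816 genes with a mean of at least 5 TPM in both PT-S1 tables. Likeness was the lower of 2 correlations, over 17 libraries at 24 h and 24 at 72 h, after removal of group means. Slc6a18 was most like Cd36, a fatty acid uptake receptor (r = 0.99 and 0.96), then Atp11a (0.98 and 0.96) and Bhmt2, a homocysteine methyltransferase (0.96 and 0.95). Atp11a was most like Slc6a18, Cd36 (0.98 and 0.95) and Mep1a, the alpha subunit of the brush-border protease meprin (0.93 and 0.94).

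Slc7a13 had other neighbours. They were Slco1a1, an organic anion carrier (0.98 and 0.98), Acsm3, an acyl-CoA synthetase (0.93 and 0.96), and Tmigd1, a small adhesion protein (0.93 and 0.96). Slc22a7 was most like Mep1b, the beta subunit of meprin (0.98 and 0.97), then Akr1c14, an aldo-keto reductase (0.91 and 0.88), and Slc7a13 (0.94 and 0.86). The levels of these neighbours spread as widely as the markers: Slco1a1 ran from 0.02 to 381 TPM at 72 h, and Mep1b from 0 to 70.2 TPM.

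Cyp7b1 had no gene that followed it closely at both times in PT-S1. Its best was Slc22a7, at 0.64 and 0.40, followed by Ldc1 (0.41 and 0.39) and Mep1b (0.64 and 0.38), and nearly all of its values are below 1 TPM. Slc22a6 of S2 stood at 0.95 and 0.92 with Slc6a18, at 0.79 and 0.69 with Slc7a13 and at 0.62 and 0.52 with Slc22a7, so its likeness fell in that order.

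Across mice, 8 of 20 pairs of marker genes were related at an adjusted p below 0.05 in a permutation test. Adjustment was Benjamini-Hochberg over the 20 pairs of both tables. Pearson's r was taken over mouse means after removal of group means. The share of related pairs among genes in general was not computed, so the count has no background to be set against. In PT-S1 24 h, with 7 mice and an exact permutation test, Slc6a18 and Atp11a had r = 0.98 (p = 0.000397, adjusted 0.00397, Spearman's rho = 0.96, p = 0.00278). Exact means here that all orders of the 7 mice were used. Deviations from a group mean are not independent and were permuted across both groups. The p-values of these relations at both times are therefore approximate and may be too small. Slc7a13 had r = 0.87 with Slc6a18 (p = 0.00655, exact permutation test, adjusted 0.0187), and without the 2 mice farthest from the median it had r = 0.72. With Atp11a, Slc7a13 had r = 0.90 (p = 0.00516, exact permutation test, adjusted 0.0173), which fell to 0.50 without the 2 farthest mice.

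Slc7a13 and Slc22a7 had r = 0.90 in the same mice (p = 0.00417, exact permutation test, adjusted 0.0173) and 0.67 without the 2 farthest. In PT-S1 72 h, with 10 mice, Slc6a18 and Atp11a had r = 0.95 (permutation p = 4e-05, adjusted 0.0008, rho = 0.96) and 0.91 without the 2 farthest. Slc6a18 and Slc7a13 had r = 0.86 (permutation p = 0.00126, adjusted 0.0084, rho = 0.87) and 0.82 without them. The pair Slc6a18 and Atp11a was thus the tightest at both times.

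The remaining pairs that passed at 72 h fell more without the 2 farthest mice. Atp11a and Slc7a13 had r = 0.75 (permutation p = 0.0104, adjusted 0.0261), and 0.63 without the 2 farthest mice. Slc7a13 and Slc22a7 had r = 0.81 (permutation p = 0.0052, adjusted 0.0173), and 0.41 without them. Leaving out the farthest mice also narrows the range, which can lower r by itself. None of the 8 pairs with Cyp7b1 passed, and neither did Slc22a7 with Slc6a18 or Atp11a (adjusted p from 0.147 to 0.769 over these 12 pairs).

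The next comparison was UNx against sham, which asks how tubules of the remaining kidney respond. No marker passed the test in any table. With limma on log2(TPM + 1) of mouse means and adjustment over all genes tested, 0 of 4 markers passed in each PT-S1 table and 0 of 5 in each CCD table. At an unadjusted p below 0.05 there were 1 and 0 in PT-S1 and 3 and 0 in the CCD, at 24 h and 72 h. In PT-S1 24 h, 0% of 11874 genes passed at all, and 2109 had an unadjusted p below 0.05. In the CCD, 2138 of 13775 genes at 24 h and 1031 of 13770 at 72 h had a limma p that low before adjustment. Cyp7b1 had a mean below 1 TPM in PT-S1 and was not tested there.

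Among the markers tested in PT-S1, Slc6a18 at 24 h came nearest. Slc22a7 and Slc7a13 in CCD 24 h had lower adjusted p-values, which are given below. In the sham libraries of PT-S1 24 h Slc6a18 had 24.68, 24.81 and 73.59 TPM in mouse 1. In sham mouse 2 it had 27.98 and 7.89 TPM, and in sham mouse 3 it had 95.59, 21.16 and 23.56 TPM. In UNx it had 83.93 and 121.39 TPM in mouse 1, 13.59 and 340.35 TPM in mouse 2, 317.05 and 428.07 TPM in mouse 3, and 14.01, 27.28 and 30.26 TPM in mouse 4. UNx mice 1 to 3 lay above every sham mouse in their means and UNx mouse 4 lay among them, so the groups overlapped.

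The fitted difference of Slc6a18, UNx minus sham, was 1.67 on the log2(TPM + 1) scale (SE 0.72, 95% interval 0.06 to 3.27, limma p = 0.0431, adjusted p = 0.274). The median over all genes was -0.19. Leaving out library 2 of UNx mouse 2 gave 1.10, leaving out UNx mouse 3 gave 0.98, and leaving out UNx mouse 4 gave 2.30. Without the libraries that stood apart it was 1.45 (limma adjusted p = 0.273).

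Atp11a, which followed Slc6a18 so closely across libraries, had another difference between the groups. It had 55.07, 38.39 and 98.15 TPM in sham mouse 1, 31.78 and 13.38 TPM in sham mouse 2, and 124.37, 37.99 and 43.60 TPM in sham mouse 3. In UNx it had 38.76 and 61.74 TPM in mouse 1, 6.74 and 130.09 TPM in mouse 2, 86.35 and 137.74 TPM in mouse 3, and 7.99, 10.89 and 14.08 TPM in mouse 4. The difference was -0.18 (SE 0.64, 95% interval -1.59 to 1.23, limma adjusted p = 0.883), and its direction turned with the scaling (0.01 with median-ratio scaling).

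Slc7a13 differed by 0.86 at 24 h (SE 0.99, limma adjusted p = 0.625) and Slc22a7 by 0.36 (SE 0.64, adjusted p = 0.758). Both turned negative without library 2 of UNx mouse 2 (-0.11 and -0.42), and without sham mouse 2 (-0.02 and -0.11). None of the 4 tested markers had mice that did not overlap between the groups, where 14.9% of all genes did.

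The ratio of Slc6a18 to Atp11a within a library separated the groups at 24 h. This ratio was picked after the values were seen. In sham libraries it was 0.45, 0.65 and 0.75 in mouse 1, 0.88 and 0.59 in mouse 2, and 0.77, 0.56 and 0.54 in mouse 3. In UNx libraries it was 2.17 and 1.97 in mouse 1, 2.02 and 2.62 in mouse 2, 3.67 and 3.11 in mouse 3, and 1.75, 2.51 and 2.15 in mouse 4. Every UNx library was above every sham library, both in UNx mouse 2, whose libraries had 0.60 and 338.04 TPM of Slc7a13, and in the others.

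As mouse means of the difference of log2(TPM + 1), the ratio was -0.61 ± 0.15 in sham (SD, n = 3) and 1.23 ± 0.35 in UNx (SD, n = 4). They differed by 1.85. Since the pair was chosen for this pattern, the difference is a description with no test, and the smallest exact permutation p that 7 mice allow is 0.0571. Leaving out each library or mouse in turn gave 1.68 to 1.93. A ratio inside a library does not depend on the library's scaling, and it does not tell which of the 2 genes differed.

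The same difference from Atp11a was taken for all genes tested at 24 h, as a description. The spread of Atp11a between mice (SD 0.85 in sham and 1.35 in UNx, log2 scale) enters each such difference. The pair was picked for its separation, so the share that follows is no test of it. Against Atp11a, the mice of both groups did not overlap for 0.573% of 11873 genes (68 genes, 67 of them higher in UNx), and Slc6a18 was 1 of them. A larger difference from Atp11a was found for 25 genes. Among them, chosen after their values were seen, were Cyp4a14, a fatty acid hydroxylase, at 3.39, Ucp2, a mitochondrial carrier, at 3.33, Fabp1, a fatty acid binding protein, at 3.11, and Slc5a10, a sugar carrier, at 3.03. Cd36, named above as the gene most like Slc6a18, stood at 1.97.

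At 72 h the ratio overlapped between the groups. It ranged from 0.30 to 1.19 in the 12 sham libraries (median 0.57) and from 0.35 to 1.48 in the 12 UNx libraries (median 0.64). Both ranges held the median of the 24 h sham libraries, 0.62, and neither reached that of the 24 h UNx libraries, 2.17. The mouse means differed by 0.15, where 0.0926% of 11885 genes had mice that did not overlap against Atp11a. Whether the 72 h difference departs from that at 24 h was not tested.

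**Figure D4:**
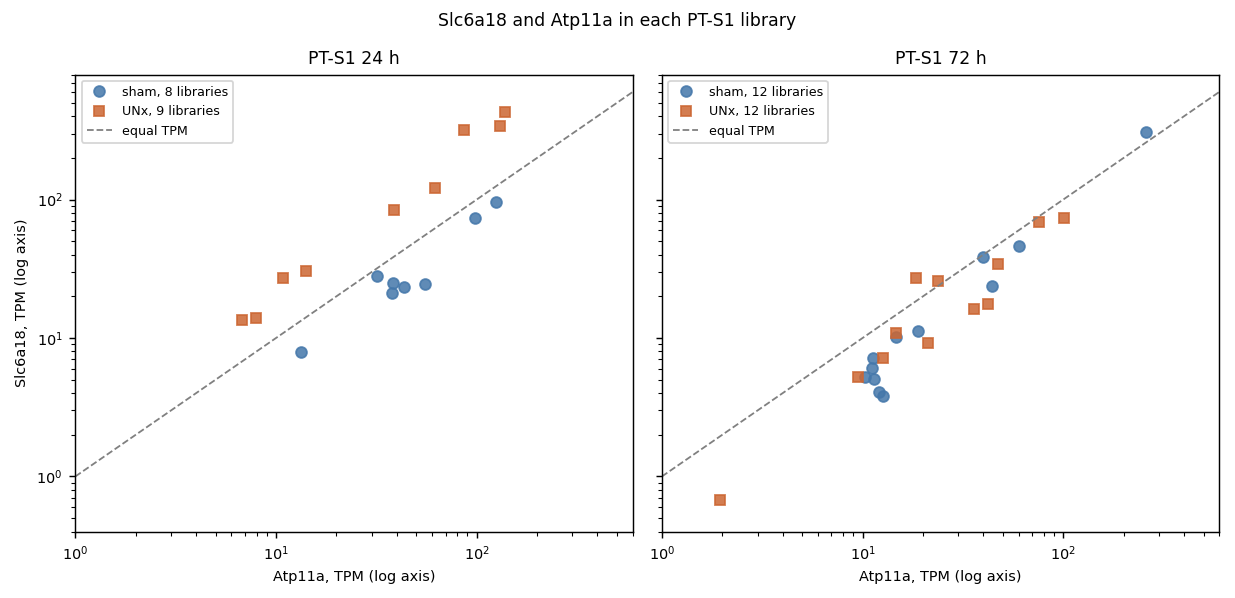
Slc6a18 (vertical axis) against Atp11a (horizontal axis) in each PT-S1 library, TPM on log axes, with 24 h at left and 72 h at right. Sham libraries are blue circles, UNx libraries orange squares, and the dashed line marks equal TPM. At 24 h all 9 UNx libraries lie above the line and all 8 sham libraries below it, and at 72 h the groups mix.

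Each gene was also set against the mean of the 12 other S3 genes of the same mouse at 24 h, as a description. Slc6a18 minus that mean was -0.62 ± 0.20 in sham and 0.30 ± 0.63 in UNx (SD, n = 3 and 4), a difference of 0.92. Atp11a minus that mean was -0.01 ± 0.35 in sham and -0.93 ± 0.37 in UNx, a difference of -0.92. The median gene differed by -0.94 on this measure, so the value of Atp11a was near that of genes in general. The mice of both groups did not overlap for Slc6a18 and for Atp11a, where 2.24% of 11862 genes did not (17 higher and 249 lower in UNx). Slc7a13 differed by 0.12 and Slc22a7 by -0.38.

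The same S3 mean used as a covariate in the limma fit, an alternative chosen after seeing the data, gave Slc6a18 0.54 (SE 0.20, adjusted p = 0.183) and Atp11a -1.17 (SE 0.21, adjusted p = 0.122). It gave Slc7a13 -0.61 (SE 0.43) and Slc22a7 -0.42 (SE 0.47). The standard errors were smaller than in the fit without it, and no marker passed.

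In PT-S1 72 h 3 of the 4 tested markers had negative differences, and none passed (0% of 11886 genes did in limma, with 2432 at an unadjusted p below 0.05). Slc6a18 had sham libraries from 3.83 to 310 TPM (median 8.69) and UNx libraries from 0.68 to 73.4 TPM (median 16.8), a fitted difference of 0.10 (SE 0.63, limma adjusted p = 0.929). Atp11a differed by -0.05 (SE 0.53, adjusted p = 0.957), and by 0.27 after quantile normalization. Slc7a13 differed by -0.54 (SE 0.90, adjusted p = 0.701), and by 0.22 without sham mouse 5.

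Slc22a7 had the largest difference at 72 h. Its sham libraries had 12.43 and 2.39 TPM in mouse 1, 40.43 and 0.38 TPM in mouse 2, 26.26, 180.07 and 0.70 TPM in mouse 5, and at most 0.48 TPM in mice 3 and 4. Its UNx libraries had at most 2.13 TPM except for 90.19 TPM in library 3 of mouse 4, and 3 were at 0. The difference was -1.24 (SE 0.74, 95% interval -2.85 to 0.37, limma adjusted p = 0.306), and -0.69 without sham mouse 5. None of the tested markers had non-overlapping mice, where 5.56% of genes did.

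In a model of both times no marker's effect passed as different between them. The 72 h effect minus the 24 h effect was -1.57 for Slc6a18 (SE 1.08), 0.13 for Atp11a (SE 0.92), -1.40 for Slc7a13 (SE 1.51) and -1.60 for Slc22a7 (SE 1.14), each with a limma adjusted p of 0.998. Among 11455 genes 0% passed in limma, and 381 had an unadjusted p below 0.05.

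**Figure D5:**
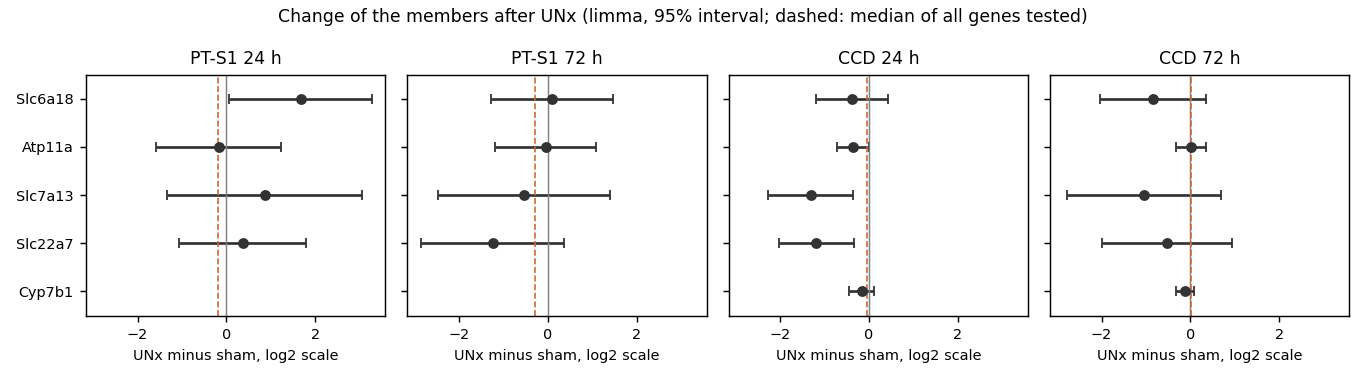
Fitted difference of each marker, UNx minus sham on the log2(TPM + 1) scale (horizontal axis), in the 4 tables, with the limma 95% interval as bars and the median of all genes tested as the dashed line. Only Slc6a18 in PT-S1 24 h and Atp11a, Slc7a13 and Slc22a7 in CCD 24 h have intervals that leave out 0. None of them passed after adjustment over all genes. Before adjustment, limma p was below 0.05 for 2109 of 11874 genes in PT-S1 24 h and 2138 of 13775 in CCD 24 h.

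The other genes of the proximal tubule give the setting of these values. Of 12 other S3 genes, 10 had positive and 2 negative differences in PT-S1 24 h (median 0.56, all genes -0.19), and 8 and 4 in PT-S1 72 h (median 0.12, all genes -0.29). None passed. Slc5a1, the high-affinity glucose carrier of S3, differed by 2.21 at 24 h (SE 1.00, limma adjusted p = 0.281), and Kap by 2.31 at 72 h (SE 1.10, adjusted p = 0.250). All 4 S2 genes were positive at both times (medians 0.51 and 0.58), with Slc22a6 at 0.93 and 0.98. The 8 S1 genes were 1 positive and 7 negative at 24 h and all negative at 72 h (medians -0.51 and -0.18). Their 72 h median lay above the -0.29 of all genes. Adding up the S1 genes per library gave a higher 72 h median for UNx (15482 TPM) than for sham (12488 TPM). At 24 h the order was reversed (11036 TPM for UNx, 14170 TPM for sham). Library 2 of UNx mice 1 and 2, which stood apart, held the lowest Slc34a1 values at 72 h (1272 and 1360 TPM). Summed per library at 24 h, the other S3 genes ran from 1026 to 9716 TPM in sham and 1039 to 37782 TPM in UNx. Their medians were closer, at 4190 and 4859 TPM. At 72 h the sums ran from 474 to 34289 TPM in sham and 204 to 23787 TPM in UNx (medians 1059 and 4307). Much of the high sums at 24 h was Kap, which alone ran from 14.8 to 33169 TPM. Slc5a1 and Slc22a19 were at most 75.2 and 27.9 TPM there. The part of these genes in the marker differences was not tested apart from the covariate fit above.

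None of the listed relatives of the 5 markers passed in any table. The amino acid carriers listed with Slc6a18 were 2 positive and 3 negative in PT-S1 24 h and 3 and 2 in PT-S1 72 h. Those listed with Slc7a13, which include its partner Slc3a1, were 2 and 4, then 3 and 2. The flippase genes and Tmem30a were 1 and 4, then 2 and 3, and the bile acid enzymes 1 and 2, then 0 and 3. The carriers listed with Slc22a7, which include Slc22a6, were on 1 side, at 5 and 0 at both times (medians 0.71 and 0.31). Slc22a7 itself differed by 0.36 and -1.24. In the CCD these carriers were 0 and 4 at both times.

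In the CCD at 24 h all 5 markers had lower means in UNx, and none passed (0.987% of 13775 genes did, 136 genes). Slc7a13 had 6.86 and 9.43 TPM in sham mouse 1, 2.81 and 8.92 TPM in mouse 2, 3.68 TPM in mouse 3, and 16.34, 0.91 and 15.24 TPM in mouse 4. In UNx it had 0.63 and 0.42 TPM in mouse 1, 2.08 and 0.70 TPM in mouse 2, and 2.63, 5.72 and 7.20 TPM in mouse 3. UNx mouse 3 lay within the sham range, and UNx mice 1 and 2 lay below it.

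The difference of Slc7a13 was -1.31 (SE 0.42, 95% interval -2.27 to -0.35, limma adjusted p = 0.184). It was -1.86 without UNx mouse 3 (limma adjusted p = 0.0476) and -0.89 without UNx mouse 1. Slc22a7 differed by -1.19 (SE 0.37, adjusted p = 0.172), Slc6a18 by -0.38 (SE 0.36, adjusted p = 0.659, and -0.66 to -0.01 on leaving out 1 mouse) and Atp11a by -0.37 (SE 0.16, adjusted p = 0.308). No marker's mice were apart, where 15.1% of genes had mice that did not overlap.

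Most of the tested S1, S2 and S3 genes were on the same side as the markers in these CCD libraries. All 11 tested S3 genes outside the 5 markers were negative (median -0.90, all genes -0.04), as were 3 of 3 S2 genes and 5 of 6 S1 genes, and none passed. Slc22a19, an organic anion carrier of S3, came nearest at -0.997 (limma adjusted p = 0.134). The principal cell markers summed to 21169 to 48626 TPM in sham and to 43629 to 71406 TPM in UNx. Most of this sum was Aqp2 (9759 to 34487 TPM in sham and 29304 to 54564 TPM in UNx), while Scnn1g, a subunit of the epithelial sodium channel, had 949 to 1163 TPM in sham and 970 to 1175 TPM in UNx. With the S3 mean as a covariate, Slc7a13 differed by -0.27 and Slc22a7 by -0.23. Of thick ascending limb genes, Umod had 77.96 to 5965 TPM in sham and 50.7 to 206 TPM in UNx. Slc12a1 had 0.16 to 799.6 TPM and 0.13 to 5.39 TPM. The 5 listed genes of that segment were 1 positive and 4 negative. Their sum per library had a median of 1647 TPM in sham (1086 to 8573) and 1860 TPM in UNx (1588 to 2007). The part of these in the marker differences was not tested.

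Slc7a13 stood in another proportion to the S1 gene Slc34a1 in the CCD libraries. Its ratio to Slc34a1, chosen after the values were seen, had a median ratio of 0.129 in the CCD libraries and 0.000377 in the PT-S1 libraries. Within mice of the CCD, Slc7a13 followed Slc34a1 at r = 0.84 over 14 libraries at 24 h and 0.98 over 9 at 72 h. With Slc5a2, another S1 gene, r was 0.37 and -0.68, at Slc5a2 levels of at most 5.15 TPM. Atp11a did not follow Slc6a18 there (r = 0.10 and -0.75), unlike in PT-S1. The 72 h values come from 9 libraries of 4 mice, with library 2 of sham mouse 1, which stood apart, among them. Library 2 of that mouse had 14.44 TPM of Atp11a, 13.66 of Slc6a18 and 46.1 of Slc7a13. Library 1 had 36.41, 2.79 and 5.55 TPM. These r values were not computed without library 2.

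In the CCD at 72 h sham mouse 1 stood apart, with 5.55 and 46.1 TPM of Slc7a13 and 3.15 and 21.48 TPM of Slc22a7. The other sham mice had at most 2.38 TPM of Slc7a13, and the UNx mice at most 2.79 TPM. The differences were -1.05 for Slc7a13 (SE 0.77, limma adjusted p = 0.878, and -0.69 without library 2 of sham mouse 1), -0.53 for Slc22a7 (SE 0.66, adjusted p = 0.930) and -0.85 for Slc6a18 (SE 0.54, adjusted p = 0.843). No marker passed where 0.595% of 13770 genes did (82 genes), and none had mice apart where 4.77% did.

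Cyp7b1 was the steadiest marker in the CCD. At 24 h it had 52.3 to 78.6 TPM in sham libraries (median 71.2) and 52.8 to 69.4 TPM in UNx libraries (median 61.5). The difference was -0.17 (SE 0.12, 95% interval -0.45 to 0.11, limma adjusted p = 0.554). At 72 h sham libraries had 59.7 to 72.3 TPM and UNx libraries 49.5 to 67.9 TPM, a difference of -0.13 (SE 0.09, 95% interval -0.33 to 0.08, adjusted p = 0.872). Atp11a at 72 h was at 30.6 ± 5.8 TPM in sham and 29.7 ± 0.60 TPM in UNx (SD, n = 4 each), with a difference of 0.01 (SE 0.15, adjusted p = 0.997).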

How the data were processed

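Per the submitters' processing notes, reads were handled with STAR and RSEM 1.3.3 on GRCm39. The authors deposited 4 tables of TPM, 1 for each segment and time. RNA was extracted with a Zymo kit and amplified with SMART-Seq V4, per the labels' protocols. All 69 value columns were used: 47 matched 1 sample, and 22 matched a group and mouse, for which the library number is the table's own. The replicate is the mouse. Nothing says which mice or libraries were processed together, so p-values measure the spread between these mice.

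TPM as deposited was put on the log2(TPM + 1) scale (pseudocount 1), averaged over a mouse's libraries and fitted with limma 3.58.1 (R 4.3.3; empirical Bayes with a trend, two-sided, Benjamini-Hochberg, threshold 0.05) over genes with a mean of at least 1 TPM. Fits were tested on simulated data. Permutation tests used scipy 1.17.1 in Python 3.11.15 (exact, or 100000 resamples for 10 mice). A change in TPM of a few abundant genes shifts all others. The 5 genes and the lists were chosen with earlier results of these data known. Named besides them are, for each marker, the 3 genes most like it, members of the lists, and genes said to be chosen after their values were seen. Alternatives were the pseudocount, filters, scalings, averaging, a random effect, a replicate block, and leaving out libraries or mice. The labels do not say whether sham and UNx mice of the same number are paired, and the main fits did not pair them. Promoter sequence came from RefSeq (GRCm38.p6). Some list members and neighbouring genes are not reported here.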

Additional observations from a re-analysis of the deposited data

Results flagged for a closer look

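Of 30 groups of 4 or 5 mice, 5 had a mouse farther from the rest than Dixon's test allows at the 95% level, where chance gives about 1 in 20. All values are mouse means on the log2(TPM + 1) scale. Cyp7b1 in CCD 24 h sham was lowest in mouse 2, at 5.84, with the next at 6.16. Cyp7b1 in CCD 72 h sham was highest in mouse 2, at 6.16, with the next at 6.07. Cyp7b1 in PT-S1 72 h UNx was highest in mouse 4, at 1.26, with the next at 0.33. Slc22a7 was highest in the same mouse, at 2.72, with the next at 0.86, and library 3 of that mouse held the highest level of both genes. Slc22a7 in CCD 72 h sham was highest in mouse 1, at 3.27, with the next at 0.48. Library 2 of this mouse was among those that stood apart.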

How the results depend on the processing

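For 22 marker values, 638 alternatives were run: 578 kept the direction and the side of the threshold, 58 turned the direction and 2 passed the threshold. The mouse numbers are shared between groups, and the labels do not say whether they pair mice. With a replicate block, which drops mice without a partner, Slc6a18 in PT-S1 24 h was 2.30 (limma adjusted p = 0.0154) and Atp11a 0.38, and the genes called were 80 in PT-S1 24 h, 0 in CCD 24 h and 3 in CCD 72 h. The other value that passed was Slc7a13 in CCD 24 h without UNx mouse 3.

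The count of genes called in PT-S1 24 h, 0 as reported, was 2 with no filter, 100 with the mouse as a random effect, and 1 each with quantile normalization, with median-ratio scaling, with the S3 covariate and without the libraries that stood apart. Leaving out 1 mouse or library gave 0 to 1287, the highest without library 2 of sham mouse 3. In PT-S1 72 h it was 10 with a random effect, 1 without those libraries, and 0 to 0 in leaving out each mouse or library. In CCD 24 h, 136 as reported, it was 1 with no filter, 485 with a random effect, 2 with the S3 covariate, and 7 to 217 in leaving out each. In CCD 72 h, 82 as reported, it was 39 at a mean of at least 5 TPM, 7 with no filter, 129 without those libraries, and 2 to 129 in leaving out each. For the difference between times it was 1 with no filter and 187 without those libraries. The causes were not tested.

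Directions turned as follows. With the S3 covariate, PT-S1 24 h Slc7a13 was -0.61 and Slc22a7 -0.42, PT-S1 72 h Slc6a18 -0.17, CCD 24 h Slc6a18 0.38, and CCD 72 h Atp11a -0.048 and Slc22a7 0.053. With log2 of the mean TPM, PT-S1 24 h Slc22a7 was -0.20, PT-S1 72 h Slc6a18 -0.11, CCD 72 h Atp11a -0.023, the Atp11a difference between times -0.053 and the 72 h Slc6a18 to Atp11a difference -0.038. Without the libraries that stood apart, PT-S1 24 h Slc22a7 was -0.26, and Atp11a was 0.30 in PT-S1 72 h and -0.15 in CCD 72 h. Atp11a was 0.012 in PT-S1 24 h with median-ratio scaling, and in PT-S1 72 h it was 0.24 with that, 0.27 with quantile normalization and 0.015 with a random effect. The r of Slc22a7 and Cyp7b1 at 72 h was -0.16 without the 2 farthest mice. Leaving out each mouse or library gave Atp11a -0.69 to 0.38 in PT-S1 24 h, -0.34 to 0.32 in PT-S1 72 h and -0.15 to 0.17 in CCD 72 h. It gave Slc7a13 -0.11 to 1.82 and -1.16 to 0.22, Slc6a18 at 72 h -0.23 to 0.58, Slc22a7 at 24 h -0.42 to 1.15, and the 72 h Slc6a18 to Atp11a difference -0.042 to 0.29. The depth behind low TPM values is unknown, which limits Slc22a7 and Cyp7b1 most.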
